A study of Arabidopsis thaliana with 12 samples.

Results

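In Arabidopsis plants kept in darkness, 42 genes of mixed function had a higher array signal in the flu mutant than in the wild type (WT) on every array, with a clear gap between the genotypes. They were chosen from 692 array features that list exactly 1 gene, out of 3439 features in all. A feature was taken where its lowest value among 6 flu arrays was at least 1.2 times its highest value among 6 WT arrays, and its flu mean was at least 1.5 times its WT mean. Both thresholds were met by 54 features with 1 gene, or 7.80% of the 692, and 12 of these, from a list of 15 genes set aside by function, were left out. The difference between flu and WT therefore chose the members. It is given below as a description, without a test.

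The flu group is the Arabidopsis thaliana flu mutant in ecotype Landsberg, with a mutated FLU gene, and the reference plants are WT of the same ecotype. All were harvested after 12 h of darkness, so the dark treatment is shared by the controls. The labels give neither tissue nor age, nor whether arrays of a group came from separate plants, so any spread between arrays may be technical. No feature listed FLU, and the labels could not be checked against the mutated gene. Of the leaf markers, 1 of 9 was measured by a feature with 1 gene. It was the light-harvesting protein LHB1B2, at 18.4 ± 1.6 in flu and 17.5 ± 2.98 in WT (SD, n = 6 each). In the same sense 0 of 5 root, 0 of 5 seed and 0 of 3 guard cell markers were measured. The direction of LHB1B2 depended on the scale, with a log2 change of -0.26 after quantile normalisation (limma adjusted p = 0.078) and 0.28 with arrays averaged in pairs and strips of feature numbers centred (adjusted p = 0.35).

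FLU is a chloroplast membrane protein that holds back tetrapyrrole synthesis in the dark. Without it, dark plants go on making protochlorophyllide, the chlorophyll precursor that needs light for its next step. On return to light this pigment produces singlet oxygen, for which the mutant is known. Roles of genes below are background knowledge of the Arabidopsis loci, since the array table gives gene identifiers only, and 15 members are given without a role.

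The values are linear intensities as deposited, running from 0 to about 100 on each array in an arbitrary unit. Array medians lay between 0.426 and 0.442 in flu and between 0.443 and 0.491 in WT, and 138 to 165 features in flu and 108 to 131 in WT were listed at exactly 0. No member was at 0 on any array. Intensities of different features are not comparable with each other, so only the flu and WT values of one gene are set side by side. In tissue samples, fewer cells of a type and less RNA per cell cannot be told apart.

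Across the members the ratio of the flu mean to the WT mean had a median of 2.29 and ran between 1.6 and 23.0. It was at least 2 in 31 of the 42 genes and at least 3 in 8. The lowest flu array was a median of 1.45 times the highest WT array. After log2 transformation and quantile normalisation the change, flu minus WT, had a median of 1.38 over the members, against -0.04 over all features. In the limma fit over 12 arrays 42 of 42 were called higher at an adjusted p below 0.05, where 23.0% of all features were, a count that the choice of members fixes.

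**Figure D1:**
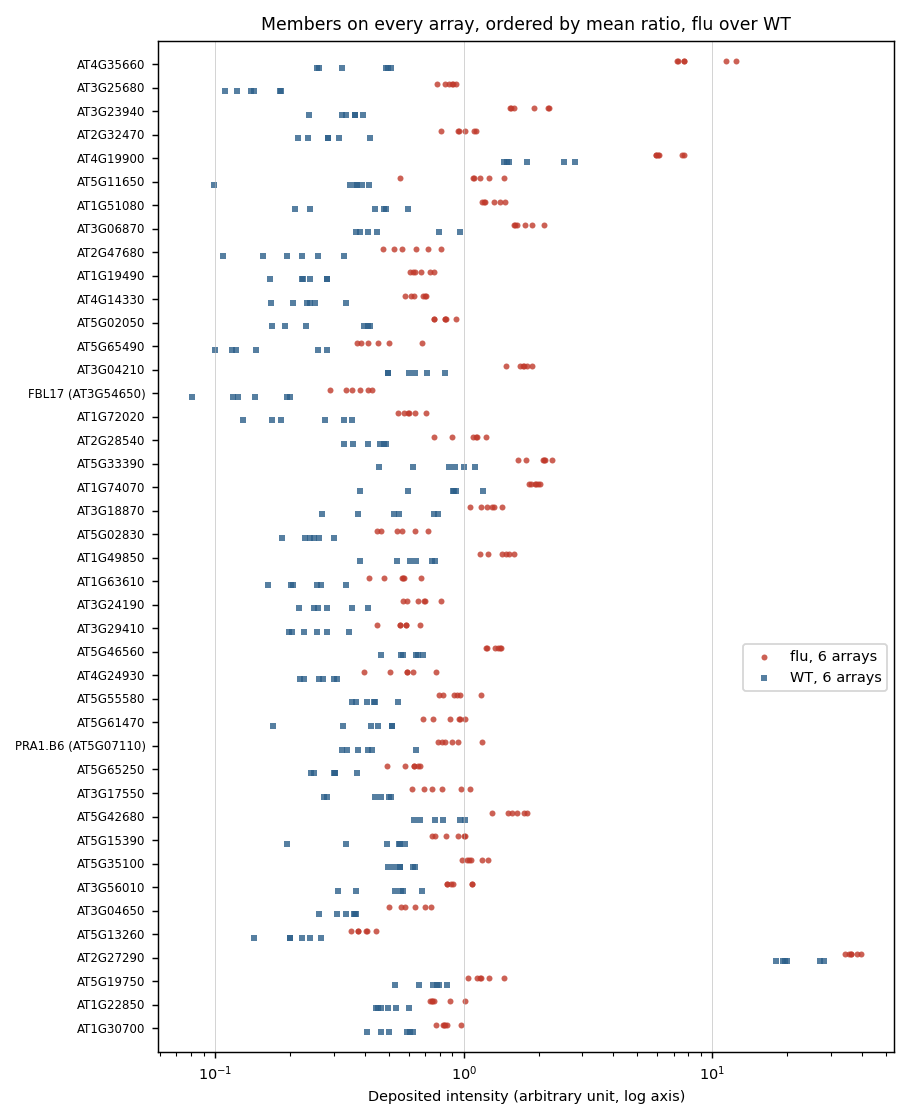
Deposited intensity (log axis, arbitrary unit) of the 42 genes on each of 6 flu arrays (circles) and 6 WT arrays (squares), ordered by the ratio of means. The flu points lie right of the WT points in every row, as the choice of members requires, and AT4G35660 at the top has the widest gap (7.22 to 12.4 in flu, against 0.257 to 0.512 in WT).

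Among 7 members that encode enzymes, the mean ratio ran between 1.6 and 5.43. AT3G23940, the dihydroxyacid dehydratase of valine, leucine and isoleucine synthesis, had the highest. Its 6 flu arrays read 1.53, 1.59, 2.19, 2.2, 1.55 and 1.92, against 0.239, 0.325, 0.364, 0.335, 0.365 and 0.394 in WT. Flu averaged 1.83 ± 0.318 and WT 0.337 ± 0.0538 (SD, n = 6 each), and the ratio between arrays of the same number stayed between 4.24 and 6.55. The branched-chain pathway list held 19 genes, of which 2 were measured by a feature with 1 gene. The other was AT3G58610, the ketol-acid reductoisomerase that acts just before the dehydratase, at 0.241 ± 0.0679 in flu and 0.33 ± 0.0453 in WT (SD, n = 6 each). Its log2 change was -0.21 (limma adjusted p = 0.3), and it did not pass. With pair means and strips centred its direction turned, to 0.34 (adjusted p = 0.22), in a strip whose other features averaged -0.56. Thus 1 of 2 measured genes of the pathway was called, and that one had been selected for its difference.

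AT4G19900, of a glycosyltransferase family, ran from 5.92 to 7.7 in flu with a median of 6.06, against 1.45 to 2.8 with a median of 1.66 in WT. Arrays 1 and 2 were the high ones in both genotypes, averaging 7.62 in flu and 2.67 in WT, while the other number pairs averaged 5.98 and 6.02 in flu and 1.47 and 1.66 in WT. The genotypes were apart within each pair of numbers as well, as the choice of members requires.

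AT5G11650, of the alpha/beta hydrolase family, ran from 0.555 to 1.45 in flu with a median of 1.13, against 0.0989 to 0.416 in WT with a median of 0.371. Its lowest value in each genotype was on array 2, and the ratio between these arrays was 5.61, the highest of its 6 same-number ratios, which began at 2.78. Array 1 was not low in either genotype, at 1.45 in flu and 0.37 in WT.

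The other 4 enzymes differed less. AT3G29410, of the terpene synthase family, averaged 0.566 ± 0.071 in flu and 0.253 ± 0.0552 in WT. AT3G17550, of a phosphatase family of the haloacid dehalogenase type, averaged 0.818 ± 0.168 in flu and 0.412 ± 0.106 in WT. AT3G04650, an FAD and NAD(P)-binding oxidoreductase, averaged 0.621 ± 0.0898 in flu and 0.334 ± 0.0415 in WT. AT1G30700, a berberine bridge enzyme-like FAD oxidase, had the lowest mean ratio of all members at 1.6, with 0.85 ± 0.0669 in flu and 0.533 ± 0.0881 in WT (SD, n = 6 for each value).

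A set of 4 members belongs to families that act on gene expression in chloroplasts and mitochondria, with mean ratios of 1.96 to 2.3. Proteins of the mTERF and pentatricopeptide repeat (PPR) families are nuclear-encoded and bind organelle nucleic acids. The mTERF9 gene (AT5G55580) averaged 0.934 ± 0.131 in flu and 0.426 ± 0.0668 in WT (SD, n = 6 each), with same-number ratios between 2.03 and 2.54. A second mTERF family member, AT3G18870, averaged 1.25 ± 0.126 in flu and 0.544 ± 0.205 in WT. The PPR gene AT5G02830 averaged 0.563 ± 0.103 in flu and 0.245 ± 0.0381 in WT, and AT5G15390, of the SpoU family of RNA methyltransferases, 0.886 ± 0.116 in flu and 0.451 ± 0.154 in WT (SD, n = 6 each). In AT3G18870 and AT5G15390 the WT values were lowest on arrays 1 and 2, at pair means of 0.322 and 0.265, against pair means of 0.522 to 0.773 on the later WT arrays.

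Thylakoid proteins and folding enzymes made up another 4 members, with mean ratios of 1.94 to 2.36. Cyclophilins are peptidyl-prolyl isomerases that help proteins fold, and 2 of them were members. AT1G74070 held the steadiest flu signal of all members, with a coefficient of variation of 3.74% around 1.93 ± 0.0724, against 35.2% around 0.821 ± 0.289 in WT (SD, n = 6 each). AT5G35100 averaged 1.1 ± 0.101 in flu and 0.565 ± 0.0557 in WT. AT3G24190, of the ABC1 kinase family whose plastid members lie in plastoglobules, averaged 0.67 ± 0.088 in flu and 0.296 ± 0.0736 in WT. AT4G24930, a thylakoid lumen protein, averaged 0.582 ± 0.127 in flu and 0.265 ± 0.037 in WT (SD, n = 6 for each value). All 4 had non-overlapping groups, as the selection required.

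Members linked to mitochondria or to membrane traffic numbered 4. AT5G02050, of the mitochondrial glycoprotein family, ran from 0.758 to 0.933 in flu with a median of 0.843, against 0.17 to 0.421 in WT with a median of 0.315. The WT arrays were uneven, with pair means of 0.315, 0.416 and 0.181, while the flu pair means were 0.846, 0.847 and 0.8. PRA1.B6 (AT5G07110), a prenylated Rab acceptor of vesicle transport, averaged 0.915 ± 0.148 in flu and 0.421 ± 0.117 in WT. AT5G19750, of the Mpv17 and PMP22 membrane protein family, averaged 1.2 ± 0.142 in flu and 0.73 ± 0.117 in WT. AT1G22850, of the SNARE-associated Golgi protein family, averaged 0.811 ± 0.111 in flu and 0.498 ± 0.0605 in WT (SD, n = 6 each). The last 2 lay close to both thresholds.

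The largest group with a role was of 8 nuclear, cytoskeletal and signalling genes, with mean ratios of 2.18 to 2.93. AT2G47680, of a zinc finger helicase family, ran from 0.475 to 0.81 in flu with a median of 0.603, against 0.108 to 0.331 in WT with a median of 0.209. Its same-number ratio was the most uneven in this group, between 1.44 and 6.63. AT1G19490, a bZIP transcription factor, ran from 0.609 to 0.761 in flu with a median of 0.656, against 0.166 to 0.283 in WT with a median of 0.234. AT4G14330, a kinesin of the phragmoplast, the structure that builds the new wall in dividing plant cells, ran from 0.581 to 0.708 in flu with a median of 0.659, against 0.168 to 0.336 in WT with a median of 0.237. In both of these genes the flu arrays lay close together, with coefficients of variation of 9.21% and 7.84%.

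A second gene known from cell division was FBL17 (AT3G54650), an F-box protein that targets inhibitors of cyclin-dependent kinases. It averaged 0.368 ± 0.0511 in flu and 0.144 ± 0.0465 in WT (SD, n = 6 each). AT3G04210, which encodes a TIR-NBS protein of the disease resistance type, averaged 1.72 ± 0.139 in flu and 0.631 ± 0.133 in WT. AT2G28540, an RNA-binding protein with an RNA recognition motif, averaged 1.04 ± 0.174 in flu and 0.421 ± 0.065 in WT. The RING finger gene AT1G49850 averaged 1.41 ± 0.167 in flu and 0.615 ± 0.142 in WT, and the C2H2 zinc finger gene AT5G61470 0.875 ± 0.131 in flu and 0.401 ± 0.132 in WT (SD, n = 6 for each value).

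The remaining 15 members are given by identifier alone, and they included the highest ratio of the set. AT4G35660 read 12.4, 11.4, 7.22, 7.26, 7.72 and 7.66 on the flu arrays, against 0.498, 0.323, 0.512, 0.487, 0.257 and 0.262 in WT. Flu averaged 8.95 ± 2.33 and WT 0.39 ± 0.122 (SD, n = 6 each), a mean ratio of 23.0, and even its lowest flu array was 14.1 times its highest WT array. Arrays 1 and 2 were the high ones in flu, whereas in WT arrays 5 and 6 were the low ones. The same-number ratio ran from 14.1 at number 3 to 35.2 at number 2, where WT read 0.323. The member next in size, AT3G25680, ran from 0.781 to 0.932 in flu with a median of 0.884, against 0.11 to 0.184 in WT with a median of 0.141. The flu arrays of this gene lay close together, and its same-number ratios ran from 4.96 to 7.65.

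AT2G32470 ran from 0.81 to 1.12 in flu with a median of 0.988, against 0.216 to 0.421 in WT with a median of 0.286. AT1G51080 ran from 1.18 to 1.47 in flu with a median of 1.27, against 0.21 to 0.598 in WT with a median of 0.459. AT3G06870 ran from 1.6 to 2.11 in flu with a median of 1.7, against 0.368 to 0.968 in WT with a median of 0.432. In AT3G06870 the 2 high WT arrays were 3 and 4, with a pair mean of 0.883, and the same-number ratio was lowest there, at 1.69. AT1G51080 is separated by 1 gene in TAIR10.1 from AT1G51100 (CRR41), a factor of the thylakoid NDH complex set aside from the members, which was at 0.749 in flu and 0.307 in WT on average, a log2 change of 1.49. Measured genes next to another 5 members, or with 1 gene between, had log2 changes of -0.07, -0.15, 0.01, -0.05 and -0.95, the last being AT4G24910, near the member AT4G24930.

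The other 10 genes without a role had mean ratios between 1.67 and 2.73. AT5G65490 and AT1G72020 stood at 2.73 and 2.54, AT5G33390 at 2.41, AT1G63610 at 2.29, AT5G46560 at 2.23, AT5G65250 at 2.06, AT5G42680 at 1.97, AT3G56010 at 1.88 and AT5G13260 at 1.85. AT2G27290 had the lowest of these ratios. Its flu arrays lay between 34.2 and 39.6, against a median of 19.7 and a highest value of 28.1 in WT, where arrays 1 and 2 averaged 27.5 and the later pairs 19.7 and 18.6. The size of its change depended on the scale, with a log2 change of 0.76 as deposited and 0.51 after quantile normalisation, and on normalised values it no longer met the mean ratio.

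**Figure D2:**
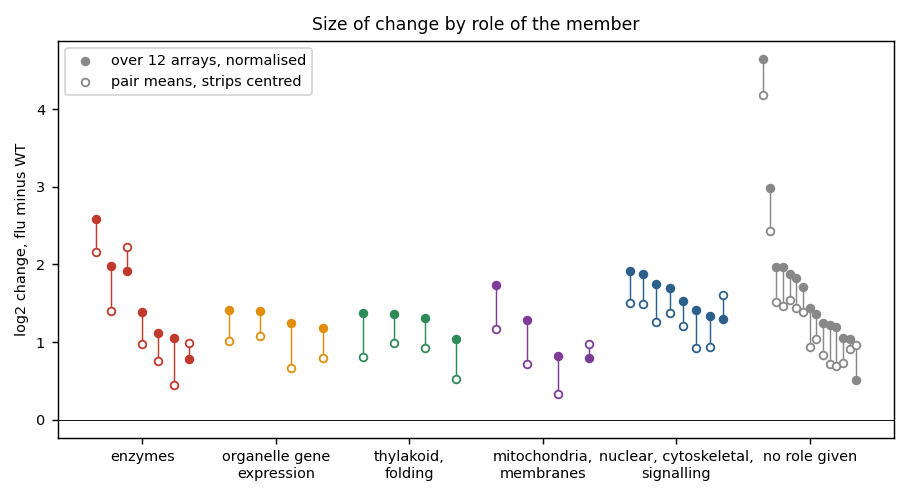
Log2 change, flu minus WT, of each member by role, over 12 normalised arrays (filled) and with arrays averaged in number pairs and strips of feature numbers centred (open). All points lie above 0, which the choice of members favours. The open points run from 0.33 to 4.18, against 0.51 to 4.65 for the filled ones.

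The gap threshold had genes close on either side of it. Just inside lay AT5G19750 at 1.214, AT3G17550 at 1.215 and AT2G27290 at 1.219, and just outside AT1G55440 at 1.199, AT1G73470 at 1.198 and AT5G11550 at 1.196. The mean-ratio threshold removed no gene that met the gap, and the member nearest to it, AT1G30700, stood at 1.596. Against the 54 features with 1 gene that met both thresholds as higher in flu, 108 met the mirrored thresholds as lower in flu.

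Arrays of the same number in flu and WT deviated together from their group means, and neighbouring numbers (1 and 2, 3 and 4, 5 and 6) resembled each other in each genotype. The mean difference between genotypes is separate from variation along the array number, because each number occurs once in flu and once in WT. The rule also used the lowest flu and highest WT arrays, so the choice of members was not wholly separate from that variation, which was tested. In limma's F test of the 6 numbers with genotype in the fit, 0 of 42 members passed an adjusted p of 0.05, where 4.13% of all features did. Those 142 features were 59 to 102 with 1 array left out and 0 with arrays averaged in pairs. At an unadjusted p below 0.05 there were 8 members, or 19.0%, against 20.1% of all features, so the share among members was near the background. AT5G11650 came closest (limma adjusted p = 0.068), with array 2 low in both genotypes, and it passed under median centring, with an offset in place of the floor on low values, among features above the median or above 0 on every array, and without flu array 2. Without a pass this test does not show that the members were level along the numbers, and the gap rule favoured genes with little spread.

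Relative to their own mean, WT arrays of the members varied more than flu arrays. The coefficient of variation was lower in flu in 36 of 42 members, with a median of 11.8% in flu and 24.1% in WT. Among features with 1 gene and a mean above 0 in both genotypes it was lower in flu in 61.6%, with medians of 18.6% in flu and 25.0% in WT. The rule compares the lowest flu array with the highest WT array and so acts on these spreads, and no test is given. The pattern by array differed between genes. Normalised log2 values were averaged over arrays 1 and 2 and over arrays 3 to 6. The first mean was higher by over 0.2 in both genotypes in 10 members, among them AT4G19900 and FBL17 (AT3G54650). The 10 also held AT4G35660, whose WT arrays 1 and 2 averaged 0.411 as deposited, below the 0.499 of arrays 3 and 4. The first mean was lower by over 0.2 in both genotypes in 6 members, among them AT3G23940. In AT5G11650, also counted among the 6, array 2 alone was low, and array 1 held its highest flu value. The share over all features was not computed, so the counts of 10 and 6 do not set the members apart.

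**Figure D3:**
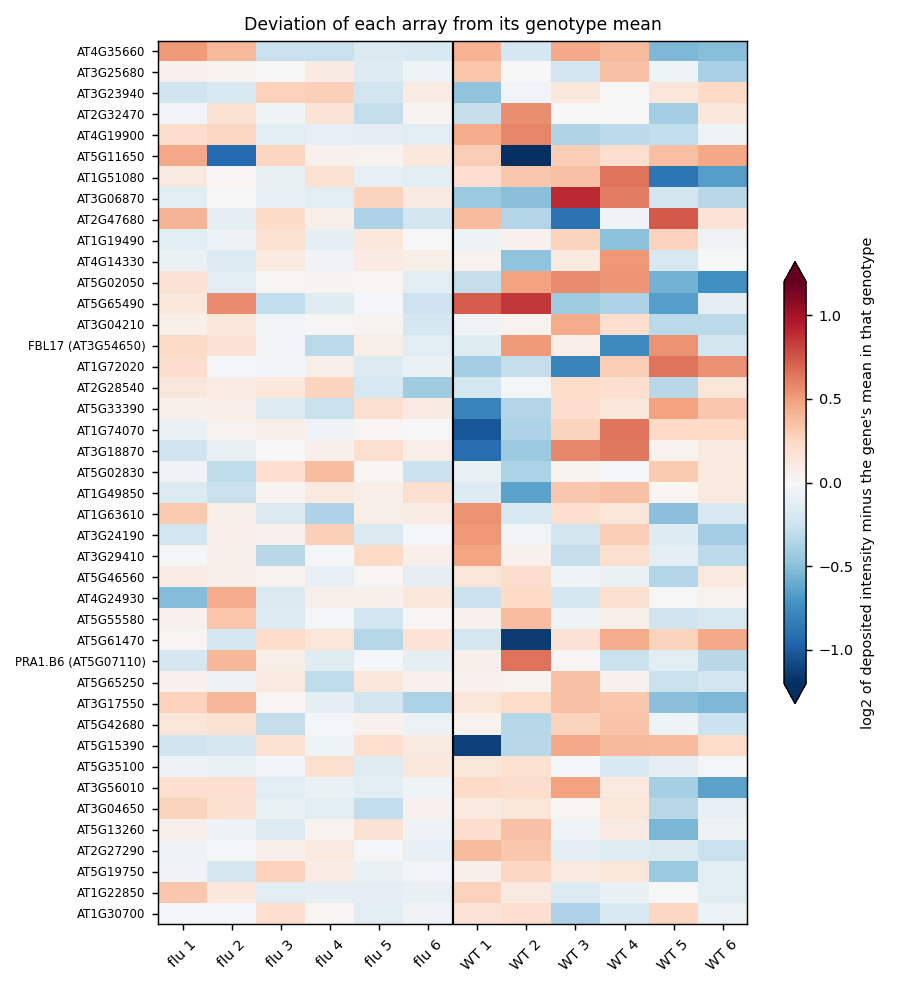
Log2 deposited intensity of each member on each array minus the gene's mean in that genotype, with flu arrays left and WT arrays right of the line. Flu columns are paler than WT columns for most genes (the coefficient of variation is lower in flu in 36 of 42), and AT5G11650 is low on array 2 of both genotypes.

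Changes between flu and WT also depended on where a feature's number lay in the array's numbering, a fact of the whole series that touches these members. Feature numbers were divided into 48 strips of 6 neighbouring numbers that recur at a fixed interval, each holding 63 to 80 features, and the mean log2 change of a strip ran from -0.67 to 0.61. Of the members, 37 of 42 (88.1%) lay in strips whose other features averaged above 0, against 58.4% of features with 1 gene. The exceptions were AT4G19900, AT1G49850, AT2G27290, AT1G22850 and AT1G30700. With arrays averaged in number pairs and strips centred, the median change over members was 0.99, against 1.38 without, and it was smaller in 37 members and larger in 5. AT4G35660 then stood at 4.18, AT3G25680 at 2.43, AT4G19900 at 2.22 and AT3G23940 at 2.16. The lowest were AT5G19750 at 0.33 and AT3G04650 at 0.44, the second in a strip whose other features averaged 0.6. The part of the strips in the members' difference was not tested beyond this centring, and the strips were set on the same data in earlier work.

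Of the 42 members, 40 were called higher with arrays averaged in pairs (14.5% of all features) and 35 with strips centred too (13.6% of all features), counts that the selection favours. AT5G15390 was not called in either fit, and AT2G27290 not with pair means alone. With strips centred, AT3G04650, AT5G13260, AT3G56010, AT3G17550, AT1G74070 and AT5G19750 were not called either.

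**Figure D4:**
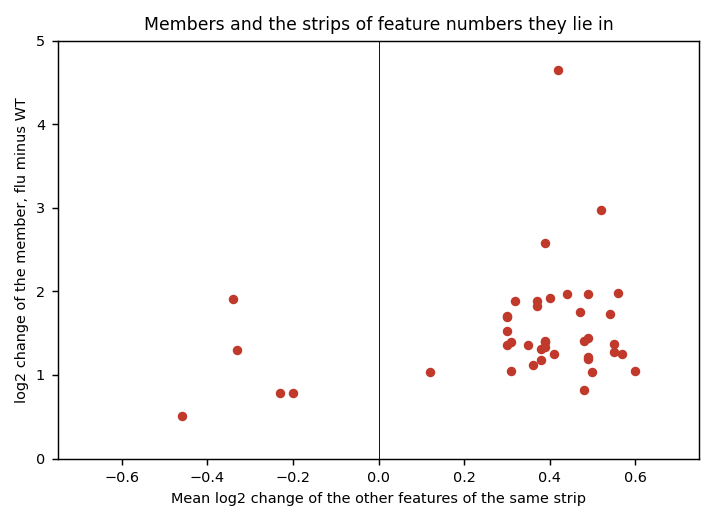
Log2 change of each member, flu minus WT, against the mean log2 change of the other features of its strip. Most members lie right of 0, at strip means up to 0.6, and 5 lie left of it down to -0.46, with AT4G35660 at 4.65 on the vertical axis in a strip averaging 0.42.

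For 5 member genes the array table names the gene again on a further feature, together with 1 or 2 other genes, so that feature cannot be given to 1 gene. The rule did not use these features, and none of the 5 met its thresholds. Those that list AT1G22850 and AT5G55580 met the mirrored thresholds, as lower in flu. Their highest flu arrays read 0.22 and 0.291, against lowest WT arrays of 0.318 and 0.43. The one that lists AT3G25680 averaged 0.404 ± 0.0495 in flu and 0.392 ± 0.0591 in WT (SD, n = 6 each), where the gene's own feature differed by a ratio of 5.92. Its log2 change was 0.2 over 12 arrays (limma adjusted p = 0.19), and -0.19 with pair means and strips centred (adjusted p = 0.52).

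The features that also list AT1G63610 and AT5G42680 had log2 changes of 0.11 and 0.06 and did not pass over 12 arrays (limma adjusted p = 0.78 and 0.79). With pair means and strips centred they stood at 0.7 and 0.65, and that of AT5G42680 then passed as higher (adjusted p = 0.049). For AT1G22850 the shared feature went the other way from the member, at 0.176 ± 0.0334 in flu and 0.427 ± 0.0675 in WT (SD, n = 6 each). It was lower in flu by limma over 12 arrays (log2 change -1.02, adjusted p = 0.00016), with pair means (adjusted p = 0.0071) and with strips centred too (-0.71, adjusted p = 0.045). For mTERF9 (AT5G55580) it stood at 0.238 ± 0.0484 in flu and 0.503 ± 0.0585 in WT (SD, n = 6 each), a log2 change of -0.91 (limma adjusted p = 0.0003), in a strip averaging -0.62. With pair means it was lower in flu too (limma adjusted p = 0.0096). With strips centred as well it was at -0.28 and did not pass (adjusted p = 0.26). The member feature of mTERF9 lay in a strip whose other features averaged 0.57. Its log2 change of 1.25 became 0.67 with pair means and strips centred. Which of its listed genes each shared feature measures was not tested.

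The members were spread over all chromosomes, with 8, 4, 11, 4 and 15 genes on chromosomes 1, 2, 3, 4 and 5. The highest share, 35.7%, was on chromosome 5, which holds 20.7% of the features with 1 gene. Gene length had a median of 2385 bp in members and 2145 bp over features with 1 gene. No 2 members were neighbours or had a single gene between them. Of the tetrapyrrole list of 27 genes, 2 were measured by a feature with 1 gene, and neither was called or a member. CHLM, the magnesium protoporphyrin methyltransferase, averaged 0.596 ± 0.161 in flu and 0.68 ± 0.106 in WT, and the geranylgeranyl reductase AT1G74470 1.58 ± 0.256 in flu and 1.34 ± 0.237 in WT (SD, n = 6 each). The direction of CHLM turned with the strips, from a log2 change of -0.13 to 0.42. None of the 18 shikimate pathway, 16 plastid import and chaperone and 12 early singlet oxygen response genes on the lists was measured by a feature with 1 gene.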

How the data were processed

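Total RNA of 6 flu and 6 WT samples was measured on arrays. The authors deposited a linear intensity for 3439 features per array. The labels do not give platform design, hybridisation, background correction or scaling. Precision is limited by the number of arrays. Signal over background was not analysed. GEO's platform table listed 692 features with 1 gene, 870 with several and left 1877 unlisted. RefSeq's table (TAIR10.1) matched all 42 members and 690 of the 692. No coordinates are printed, since the array's build is not named, and no sequences were used.

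Values were raised to a floor of 0.0236 (1st percentile of positive values), log2 transformed and quantile normalised. Tests, two-sided for genotype, used limma 3.58.1 in R 4.3.3 (lmFit, eBayes, Benjamini-Hochberg over all features). They were tried on simulated data with independent noise on each array. For the genotype tests the likeness of neighbouring and same-numbered arrays was not simulated, so that trial does not cover it. The main fit held genotype alone. Around the genotype means, same-numbered flu and WT arrays had correlated deviations (r = 0.368 to 0.539 across features), so numbers pair the arrays, and the fit with number as a block is an alternative. Further alternatives were other normalisations and filters, arrays averaged in number pairs, strips centred, and arrays left out. All members are named, with arrays in detail for the 12 highest mean ratios. Members, gene lists, strips and tests were chosen with earlier results of these data known.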

Additional observations from a re-analysis of the deposited data

Results flagged for a closer look

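In each member and genotype the 6 arrays were examined for a single array far from the other 5, in 84 groups. For independent arrays not chosen by their values, chance gives about 1 in 20, or 4.2. There were 2 such arrays. The rule used these same values and disfavoured a lone low flu or lone high WT array. Arrays of neighbouring numbers also resembled each other, so the count cannot be set against 4.2. AT5G11650 was at 0.0989 on WT array 2, against 0.348 to 0.416 on the other WT arrays, and its flu array 2 was also its lowest in flu, at 0.555. PRA1.B6 (AT5G07110) was at 0.645 on WT array 2, against 0.324 to 0.427 on the others.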

How the results depend on the processing

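The 42 members became 55 on normalised values, with 41 shared (AT2G27290 was lost), 68 where the lowest flu array needed only to exceed the highest WT array, 17 with a gap of 1.5 times and 31 with a mean ratio of 2. With 1 array left out there were 42 to 49, and all 42 were kept. Leaving arrays out can never narrow a member's gap, so only the mean ratio could have removed one. An alternative added after the data were seen left out arrays 1 and 2, 3 and 4 or 5 and 6 of both genotypes and gave 68, 62 and 63, where AT1G30700 was lost without arrays 3 and 4. Of 827 alternative values of members' log2 changes, 0 changed sign, a count that the choice of members favours. In 27 members, 31 values moved by more than the spread between arrays, 27 of them with pair means and strips centred. The replicate block, pair means alone and the feature filters cannot alter a log2 change, by construction. The 1796 of 3439 features called between genotypes became 1966 with the replicate block. Where the log2 change also had to reach 1 in size there were 806. Pair means gave 1193, strips centred too 956, and fits with 1 array left out 1665 to 1791. Among the 1719 features above the median, 1089 were called. The replicate block changed no call of a member. Values as deposited gave 1912, with 34.0% of them higher in flu (44.0% after normalisation), and moved the median log2 change of all features to -0.20, from -0.04. The 142 of 3439 features that varied with array number became 59 to 102 with 1 array left out, and 0 with pair means. At an unadjusted p below 0.05 in limma's F test, pair means gave 428. Among the 1719 features above the median, 76 varied with array number. The cause of these moves was not tested. The filtered and left-out fits held fewer features or arrays. Signal over background was not analysed here.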
